A study of Mus musculus with 27 samples.

Results

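The genes described here are 7 that a pancreatic beta cell uses to sense glucose, respond to gut hormones and store insulin, or that mark its maturity. They were chosen by name, with earlier results of these data known: Slc2a2, G6pc2, Glp1r, Slc30a8, Trpm5, Ucn3 and Abcc8. All 7 had a row in each of 3 deposited mouse RNA sequencing (RNA-seq) count tables, which hold 26487 genes for islets, 55536 for embryonic pancreas and 39017 for neural progenitors.

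In a mouse beta cell, glucose enters through the transporter encoded by Slc2a2 (GLUT2) and is metabolised to ATP. ATP closes the potassium channel whose regulatory subunit, SUR1, is encoded by Abcc8, and calcium entry through voltage-gated channels then triggers insulin release. Glucose-6-phosphatase from G6pc2 opposes glucose phosphorylation, the GLP-1 receptor (Glp1r) raises cyclic AMP, the TRPM5 cation channel adds a depolarising current, and the zinc transporter ZnT8 (Slc30a8) loads insulin granules. Urocortin 3 (Ucn3) is a peptide hormone that mouse beta cells acquire as they mature.

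Nkx2.2 is a homeodomain transcription factor of islets and ventral spinal cord, and SDmut denotes mutation of its specific domain (SD). Whole pancreas at E15.5 (E for embryonic day) came from 3 controls, described as wild type, and from 4 Nkx2.2SDmut animals. Islets at 8 weeks came from 2 controls and from 3 samples in which the mutation was limited to beta cells (betaSDmut), and islets at 4 weeks came from 2 controls and 2 samples labelled betaKO. The labels give the molecule of the 4-week samples as genomic DNA, but they stand in the deposited RNA-seq count table and were taken as RNA. The driver of the beta-cell restriction, further alleles, and whether a sample pooled animals are not given in the sources used here. Motor neuron progenitors at day 4 were differentiated from mouse embryonic stem cells. They comprised 3 untreated samples without induced Nkx2.2 (pMN) and 3 samples of the same line in which doxycycline (1 µg/ml, about 16 hours) induced FLAG-tagged Nkx2.2 (iNkx2.2). In the other progenitor line, 2 samples were treated in the same way to induce the tagged SD mutant (iSDmut). Nkx2.2 binding was mapped by chromatin immunoprecipitation sequencing (ChIP-seq) in 2 samples of MIN6 cells, a mouse insulinoma line with beta-cell features. Labels give separate samples but not their source animals or cultures, so p-values measure the spread between these samples.

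Library totals were 38447596 to 41840638 counts at E15.5, 12398041 to 32385406 in islets and 17757991 to 46840701 in progenitors. Nkx2-2 transcripts were not lower in the libraries labelled betaKO beyond their spread (64.3 and 92.8 CPM, that is read counts scaled to a common library size, against 76.2 and 103 in controls). The level of this transcript thus did not bear out the label. Which part of the gene is deleted is not given in the sources used here. The beta-cell marker Ins2 was at 107150 CPM or more in every islet library. Among the betaSDmut libraries, replicate 1 differed from the others in 3 of the 7 genes below, and it alone of the 5 libraries at 8 weeks had Xist (739 CPM against at most 3.51). At 4 weeks control replicate 1 had Xist (986 CPM against at most 0.769 in the others). At E15.5 control replicate 2 and SDmut replicates 2 and 4 had it (1572, 698.5 and 790 CPM against at most 0.318). Over all genes the log2 levels of betaSDmut replicate 1 were closest to those of replicate 2 (r 0.994 across genes, against 0.987 and 0.992 for the other pairs). Without that library, however, 2765 genes had an edgeR adjusted p under 0.05 at 8 weeks, against 1224 with it. The correlation of levels therefore does not settle whether the library stood apart. At E15.5, control replicate 3 and SDmut replicate 2 held muscle transcripts (7 markers summing to 4967 and 5734 CPM against at most 65.4 in the other libraries).

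Nkx2.2 sites in MIN6 cells lay within 100 kb of all 7 gene bodies, and the strongest of them stood upstream of Glp1r. Of 8461 genes with at least 10 CPM on average in islets, 60.2% had such a site, so a site at this distance was common among expressed genes in general. Within 10 kb, 5 of the 7 had a site (24.7% of the same genes). Among sites above the median signal, 5 of the 7 had one within 100 kb (41.2%). The authors' deposited sites numbered 6473 and carry their log2 CPM in each of 2 libraries. A site was ranked by the mean of those values. Positions are on mm10, with gene bodies from the GENCODE annotation.

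Glp1r (chromosome 17, 30901817 to 30940791, plus strand) had a site 16.3 kb upstream of its start, outside protein-coding genes, with a log2 CPM of 10.14 and 10.16, rank 16 of 6473. Slc2a2 (chromosome 3, 28697903 to 28731359, plus strand) had its strongest site 15.8 kb upstream (8.07 and 8.00, rank 672). Abcc8 (chromosome 7, 46104523 to 46180033, minus strand) had a pair of strong intronic sites, one joined to Abcc8 in the authors' deposited table (8.62 and 8.64, rank 310). The other one (8.69 and 8.81, rank 251) was joined there to Kcnj11, the neighbouring gene for the pore of the same potassium channel.

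The remaining genes had weaker sites. G6pc2 (chromosome 2, 69211073 to 69227841, plus strand) had its strongest site 2616 bases past the end of the gene (6.93 and 7.33, rank 2212). Slc30a8 (chromosome 15, 52295553 to 52335798, plus strand) had a site 17.0 kb upstream (6.89 and 7.13, rank 2583), and Ucn3 (chromosome 13, 3940688 to 3945349, minus strand) had a single site 37.1 kb upstream (6.74 and 6.74, rank 3554). Trpm5 (chromosome 7, 143069153 to 143094642, minus strand) had a single intronic site (6.64 and 6.33, rank 4602), joined in the authors' deposited table to Tssc4. The median over all sites was 6.82, so the single sites of Ucn3 and Trpm5 lay below the middle of the list and the strongest sites of Glp1r, Slc2a2 and Abcc8 in its top part. The further sites within 100 kb of those 3 genes ranked between 2593 and 6357.

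**Figure D1:**
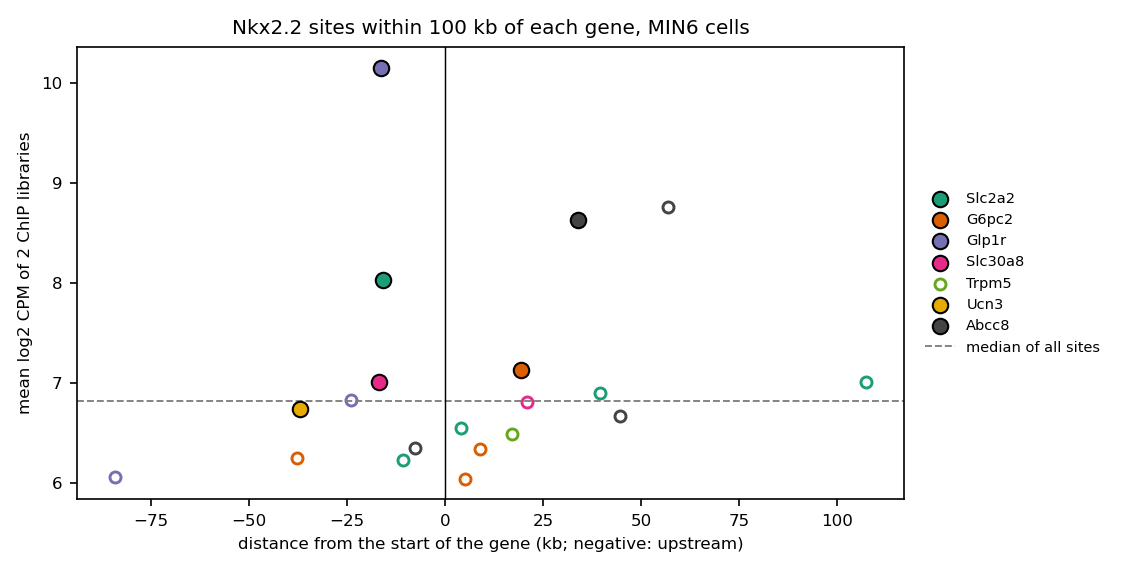
Mean log2 CPM of Nkx2.2 sites in 2 ChIP-seq libraries of MIN6 cells (y axis) by distance from the start of the gene in kb (x axis, negative is upstream). Filled points are sites the authors' deposited table joins to that gene, open points are other sites within 100 kb of the gene body, and the dashed line is the median of all 6473 sites (6.82); the Glp1r site at 10.15 stands above all others shown.

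The 201 bases centred on the joined sites of the 3 genes with the strongest signal, and of G6pc2, show what letters lie under them. The plus strand of mm10 is printed 5′ to 3′ (RefSeq sequence of the same build). Capitals mark AAGTG, the core that Nkx2 homeodomains recognise, and GTTGC, each on either strand, and a 13-base pattern, GTTGC followed after any 3 bases by GNAAC. That pattern is the X-box type of palindrome, the kind of element that RFX transcription factors bind. It and GTTGC were chosen after these sequences were seen.
Glp1r, chr17:30885403-30885603: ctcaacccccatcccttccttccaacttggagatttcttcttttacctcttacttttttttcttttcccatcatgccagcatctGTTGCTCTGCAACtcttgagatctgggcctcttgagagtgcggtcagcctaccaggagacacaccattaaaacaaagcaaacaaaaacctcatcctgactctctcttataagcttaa
G6pc2, chr2:69230357-69230557: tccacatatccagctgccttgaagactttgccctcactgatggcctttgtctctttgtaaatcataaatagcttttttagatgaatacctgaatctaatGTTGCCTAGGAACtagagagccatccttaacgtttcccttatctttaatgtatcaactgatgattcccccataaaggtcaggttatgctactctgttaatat
Slc2a2, chr3:28681969-28682169: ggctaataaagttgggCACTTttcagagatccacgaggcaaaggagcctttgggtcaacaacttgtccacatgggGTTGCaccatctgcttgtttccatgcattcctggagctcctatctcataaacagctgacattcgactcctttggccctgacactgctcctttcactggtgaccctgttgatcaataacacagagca
Abcc8, chr7:46145929-46146129: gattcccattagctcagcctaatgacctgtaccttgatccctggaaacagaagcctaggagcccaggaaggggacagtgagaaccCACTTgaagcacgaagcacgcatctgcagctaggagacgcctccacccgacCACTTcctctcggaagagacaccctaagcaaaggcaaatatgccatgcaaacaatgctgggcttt
The Glp1r site holds the palindrome GTTGCTCTGCAAC 10 bases to the left of its centre and no AAGTG. The G6pc2 site holds GTTGCCTAGGAAC 5 bases to the right of its centre and no AAGTG. The joined Abcc8 site has AAGTG on the minus strand at 2 places, 1 of them as the longer TNAAGTG, and no GTTGC. The Slc2a2 site has 1 of each 5-base core. The joined sites of Slc30a8 and Ucn3, the site within Trpm5 and the stronger intronic site of Abcc8 (rank 251) held none of these letters in their 201 bases.

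Over all 6473 sites, 40.7% held AAGTG within 100 bases of the centre. Windows of the same length 1000 bases to either side held it in 38.36% and 39.12%. The longer TNAAGTG was in 14.6% of sites, against 10.88% and 11.22% of shifted windows. GTTGC was in 47.2% of sites against 21.89% and 21.23%, and the 13-base palindrome in 8.6% against 0.14% and 0.19%. Among the 1000 highest sites the palindrome was in 15.4%. The Glp1r and G6pc2 sites thus carry a pattern that was far more frequent at sites than beside them, while AAGTG was about as frequent beside the sites as at them. Letters in a window are a description and not evidence of which factor bound.

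In control islets all 7 genes were well expressed. On the scale of deposited FPKM, which corrects for transcript length and so allows genes to be compared, G6pc2 was highest in 8-week controls at 2213 ± 128 (SD, n = 2). Slc30a8 followed at 812 ± 61.6, then Slc2a2 at 485 ± 4.93, Ucn3 at 438 ± 3.61, Glp1r at 293 ± 33.7 and Abcc8 at 255 ± 12.4, with Trpm5 lowest at 21.6 ± 0.594. No neighbours in that order overlapped in their libraries. The 4-week controls gave nearly the same order, with G6pc2 at 2353 ± 159, Slc30a8 at 793 ± 64.6, Ucn3 at 574 ± 6.34, Slc2a2 at 491 ± 105, Abcc8 at 220 ± 16.7, Glp1r at 179 ± 6.56 and Trpm5 at 29.7 ± 4.26. Ucn3 and Slc2a2, and Abcc8 and Glp1r, had changed places, and Ucn3 and Slc2a2 differed there by less than the SD of Slc2a2. The other neighbours differed by more than their SDs.

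**Figure D2:**
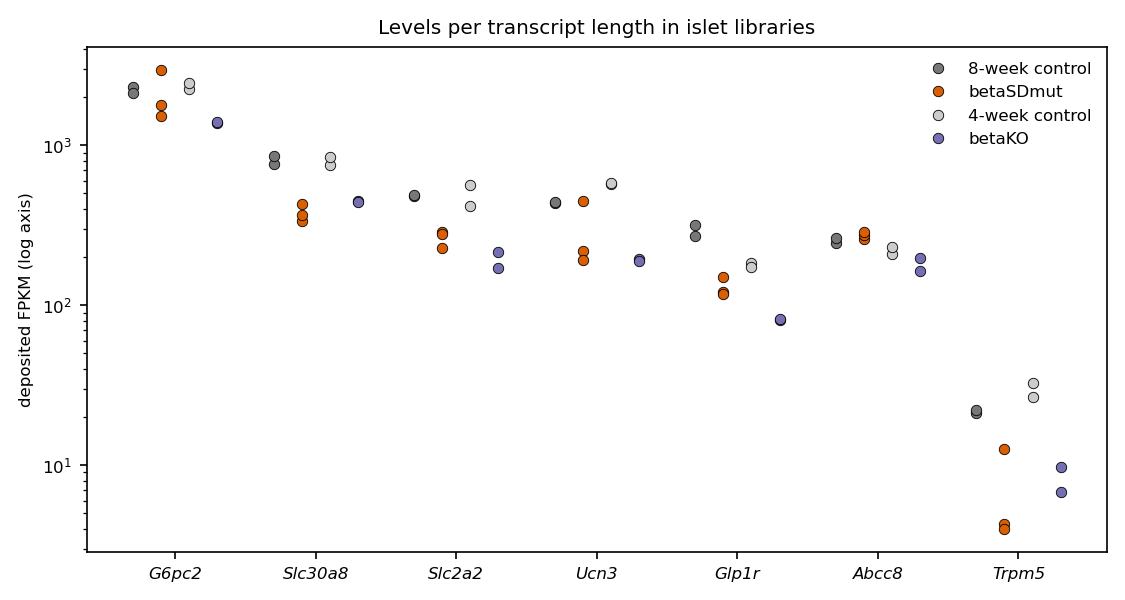
Deposited FPKM (y axis, log scale) of the 7 genes in each of 9 islet libraries, coloured by group, with 2 or 3 points per group. G6pc2 is highest and Trpm5 lowest in every group, and in betaSDmut and betaKO the points of Ucn3, Slc2a2 and Abcc8 overlap, with those of Ucn3 widely spread in betaSDmut.

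In the mutant groups genes in the middle of the order overlapped. In betaSDmut these were Ucn3 (287 ± 141 FPKM, SD, n = 3), Abcc8 (274 ± 15.3) and Slc2a2 (264 ± 32.1). The Ucn3 libraries were spread there, at 448, 219 and 192 FPKM in replicates 1, 2 and 3. In libraries labelled betaKO, Slc2a2 (193 ± 32.1 FPKM, SD, n = 2), Ucn3 (192 ± 3.15) and Abcc8 (181 ± 23.6) overlapped. Abcc8, the sixth in the order of 8-week controls, was thus level with the glucose transporter in both mutant groups.

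At 8 weeks 3 of the 7 genes were lower in betaSDmut islets: the glucose transporter Slc2a2, the incretin receptor Glp1r and the granule zinc transporter Slc30a8, at 0.538, 0.435 and 0.460 of the control level. Abcc8 was level with controls. G6pc2, Trpm5 and Ucn3 differed among the betaSDmut libraries themselves and were not called. The test was edgeR's quasi-likelihood test with Benjamini-Hochberg adjustment over all genes (threshold 0.05). It called 7.94% of 15413 genes in this comparison, 3.87% in the lower direction. In bulk islets, fewer cells of a type and less RNA per cell cannot be told apart.

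Slc2a2 was at 933 and 937 CPM in the 8-week controls and at 556, 537 and 423 CPM in betaSDmut replicates 1, 2 and 3. The groups did not overlap, and the control pair was nearly identical (log2 fold change -0.89, SE 0.129, edgeR adjusted p 0.0163). Glp1r was at 299 and 366 CPM in controls and at 171, 138 and 126 in betaSDmut. All 3 mutant libraries lay below both controls (-1.20, SE 0.155, edgeR adjusted p 0.0115). Slc30a8 was at 1126 and 1232 CPM in controls and at 634, 487 and 513 in betaSDmut. This was the gene with the smallest p among the 7 (-1.12, SE 0.137, edgeR adjusted p 0.00953).

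The channel gene Trpm5 was at 76.6 and 78.5 CPM in controls and at 46.6, 14.99 and 14.5 CPM in betaSDmut replicates 1, 2 and 3. The groups did not overlap, but replicate 1 stood about midway between the other mutants and the controls (-1.62, SE 0.586, edgeR adjusted p 0.180). Non-overlap in the lower direction was common, at 22.7% of all genes. Ucn3 was at 454 and 455 CPM in controls and at 471, 226 and 191 in betaSDmut. Replicate 1 had the highest Ucn3 of the 5 libraries, and the other pair lay below both controls (-0.62, SE 0.395, edgeR adjusted p 0.380). G6pc2 was at 3509 and 3217 CPM in controls and at 4521, 2655 and 2230 in betaSDmut, the same split (-0.11, SE 0.307, edgeR adjusted p 0.856). Abcc8 was at 1007 and 1067 CPM in controls and at 1063, 1105 and 1126 in betaSDmut (0.08, SE 0.0897, edgeR adjusted p 0.628). Its interval of 2 SE either side of the estimate ran from -0.10 to 0.26 on the log2 scale.

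**Figure D3:**
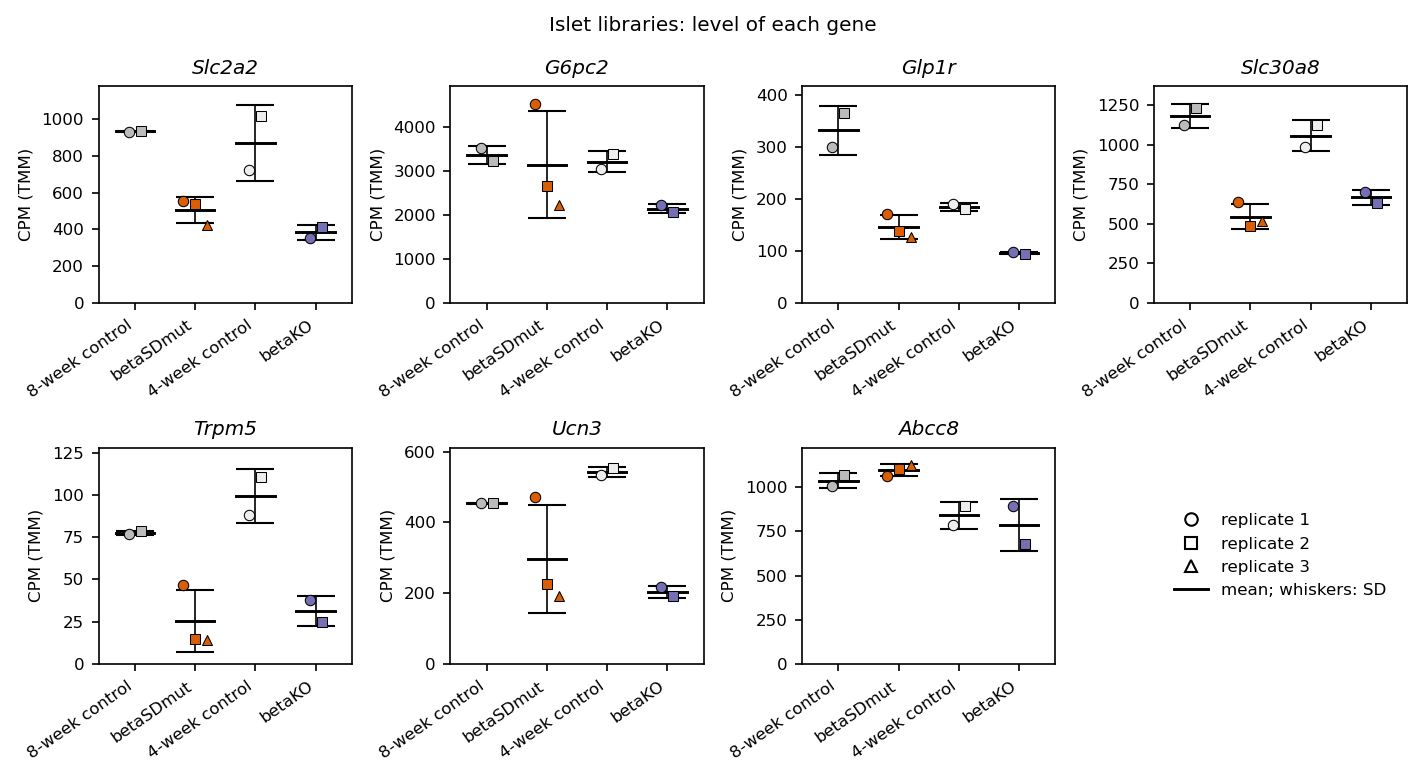
CPM scaled by TMM (y axes, from 0) of each gene in 9 islet libraries, with the mean and SD of each group and a marker shape per replicate. BetaSDmut replicate 1 (circle) is above both controls in G6pc2 (4521 CPM) and Ucn3 (471 CPM). In Slc2a2 (556 CPM), Glp1r (171 CPM) and Slc30a8 (634 CPM) it is below both controls, but nearer to them than the other betaSDmut libraries are. In Abcc8 (1063 CPM) it lies between the controls.

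Without betaSDmut replicate 1, 6 of the 7 were called lower: Trpm5 (-2.40, edgeR adjusted p 0.000152), Ucn3 (-1.13, adjusted p 0.00197) and G6pc2 (-0.46, adjusted p 0.0409) joined the others, while 8.93% of all genes were called lower and 2765 were called in all. Some genes high in betaSDmut were high in that library too, with Rbp4 at 1664 CPM (1610 and 1840 in the other mutants, 130 and 135 in controls) and Ldha at 157 CPM (201 and 208, against 9.45 and 11.7). Xist, the female-specific transcript, also set that library apart, and its part in the split of Ucn3, Trpm5 and G6pc2 was not tested.

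Marker levels of beta cells and other cells also differed between the groups at 8 weeks. Ins2 was at 142110, 146840 and 140690 CPM in betaSDmut, below both controls (161270 and 167140). Mafa (80.5, 88.0 and 54.8 against 121 and 123) and Nkx6-1 (133, 110 and 97.1 against 207 and 217) also lay below both controls. Iapp (4045, 4672 and 5274 against 2920 and 3085) and Pdx1 (133, 132 and 105 against 94.5 and 103) lay above both. Ins1 overlapped (67628, 58665 and 50060 against 67214 and 66693). Sums of 5 delta- and PP-cell markers were 10087 to 10496 CPM against 6443 to 7826, with Rbp4 the one gene of that list called (3.68, edgeR adjusted p 0.000382). Sums of 5 mesenchyme markers were 104.5 to 166 CPM against 205 to 267, with 4 of 5 at an unadjusted p under 0.05 and 0 called. The acinar sums were 780, 1555 and 7253 CPM in betaSDmut replicates 1, 2 and 3 against 8995 and 5490.5 in controls. Sums of 6 alpha-cell markers overlapped (23037 to 32968 CPM against 32166 to 40810), with 5 estimates below 0 and 1 marker called higher (4.07% of all genes). Sums of 6 duct markers overlapped too (166 to 247 CPM against 244 to 330), with 1 called lower (3.87% of all genes). No marker of these lists was at 0 in any of the 5 libraries. The part of these shifts in the 3 calls was not tested.

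The 3 calls rest on both controls. Without control replicate 1, and likewise without control replicate 2, 0 of the 7 were called by edgeR (45 and 37 genes in all); without betaSDmut replicate 2 only Slc30a8 was. The log2 fold changes in these fits ran from -1.34 to -1.05 for Glp1r, -1.24 to -1.04 for Slc30a8 and -0.97 to -0.78 for Slc2a2.

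At 4 weeks, the libraries labelled betaKO were lower in Ucn3 and Glp1r, and 4 more of the genes lay below both controls without being called. The test called 1.56% of 14942 genes, 0.75% in the lower direction. Ucn3 was at 533 and 552 CPM in controls and at 217 and 193 in betaKO, with close replicates on both sides (-1.41, SE 0.0961, edgeR adjusted p 0.0173). Glp1r was at 190 and 180 CPM in controls and at 96.8 and 94.4 in betaKO (-0.95, SE 0.0807, edgeR adjusted p 0.0224). Either call was lost when 1 control was left out: without control replicate 1 or 2, 0 of the 7 were called by edgeR, and without betaKO replicate 2 only Ucn3 was. In a model of all 9 islet libraries, where the spread of betaSDmut enters, Ucn3 was not called (adjusted p 0.126).

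Slc2a2 was at 724 and 1017 CPM in 4-week controls and at 352 and 413 in betaKO (-1.18, SE 0.189, edgeR adjusted p 0.0671). Slc30a8 was at 987 and 1125 CPM in controls and at 698 and 633 in betaKO (-0.66, SE 0.110, edgeR adjusted p 0.0610). Trpm5 was at 88.0 and 111 CPM in controls and at 37.6 and 24.98 in betaKO (-1.66, SE 0.236, edgeR adjusted p 0.0631). G6pc2 was at 3044 and 3377 CPM in controls and at 2214 and 2066 in betaKO (-0.58, SE 0.109, edgeR adjusted p 0.0782). In these 4 genes the groups did not overlap, as was so for 24.5% of all genes in the lower direction, and the unadjusted p was under 0.05, as for 7.7% of all genes in that direction. Abcc8 was at 787 and 892 CPM in controls and at 892 and 680 in betaKO, so that the groups overlapped (-0.09, SE 0.152, edgeR adjusted p 0.831). On the deposited FPKM scale Abcc8 did not overlap (208 and 231.5 in controls against 198 and 165), with a log2 ratio of means of -0.28. DESeq2 called 6 of the 7 in this comparison, all but Abcc8, and 5.24% of all genes.

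Marker sums of other cells were higher for some types and lower for others in the betaKO libraries. The 16 acinar markers, none of them at 0, summed to 9593 and 28874 CPM against 4173 and 7616 in controls. Sums of 6 alpha-cell markers were 52090 to 64034 CPM against 25886 to 30202, and those of 5 delta- and PP-cell markers 13426 to 17272 against 5444 to 6913. Sums of 5 mesenchyme markers were 340.5 to 417 CPM against 204 to 215, and those of 6 duct markers 320 to 334 against 271 to 315. Those of 5 endothelial markers were lower in betaKO, at 291 to 350 CPM against 412 to 471, as were those of 5 immune markers, at 6.86 to 16.4 against 26.6 to 36.1. Ins2 was at 115180 and 107150 CPM against 145630 and 147910. Ins1, Mafa, Nkx6-1 and Pdx1 also lay below both controls in both betaKO libraries. Iapp lay above both controls (4088 and 3670 CPM against 2841 and 3334). The part of these shifts, and of the Xist difference of control replicate 1, in the lower levels of the 7 genes was not tested.

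The betaSDmut and betaKO effects were then set against each other in 1 model of the 9 libraries, each against its own age-matched controls. By edgeR 0 of the 7 differed (1.21% of 15995 genes did), 1 had an unadjusted p under 0.05 (13.7% of all genes), and DESeq2 called none (4.19% of all genes). Slc30a8 had the smallest p, with a difference of -0.45 (SE 0.193, unadjusted p 0.0478, adjusted p 0.358) toward the larger loss in betaSDmut. Ucn3 had the widest difference, 0.79 (SE 0.514, adjusted p 0.557), with an interval of 2 SE either side from -0.24 to 1.82. For Trpm5 the estimate was 0.04 with an interval from -1.53 to 1.62, which includes a 2-fold difference in either direction. Age and mutation vary together between these effects.

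**Figure D4:**
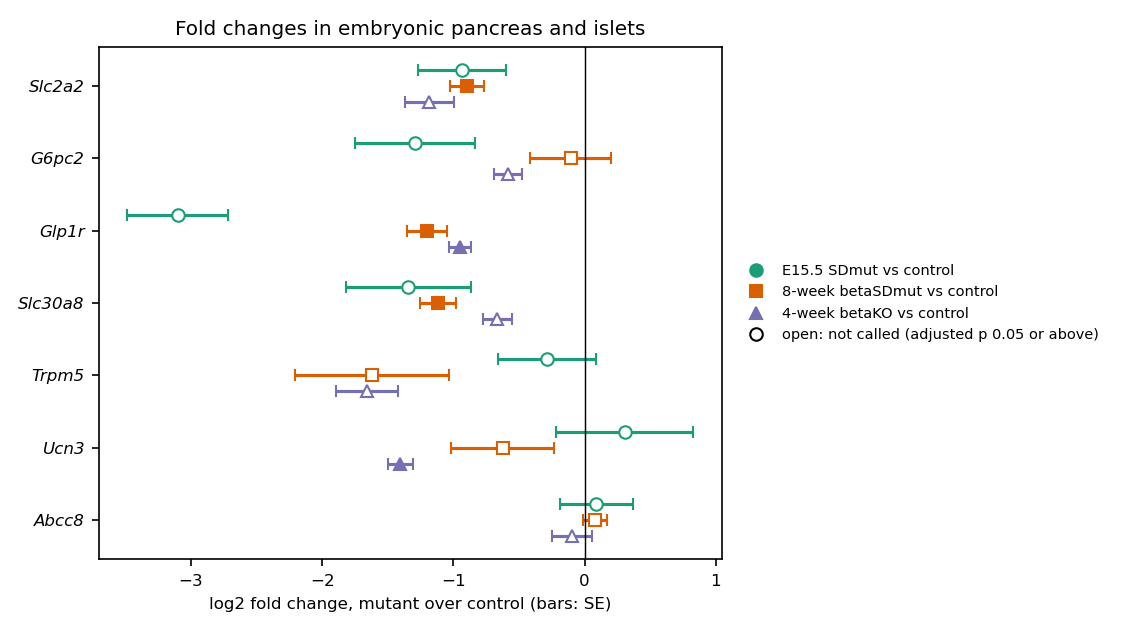
Log2 fold change with its SE (x axis) of each of the 7 genes in E15.5 pancreas, 8-week betaSDmut islets and libraries labelled betaKO, each against its controls. Filled symbols are called at an adjusted p under 0.05; Glp1r is at -3.10, -1.20 and -0.95 and Abcc8 is at 0.09, 0.08 and -0.09.

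Control islets of both ages were also compared in that model. By edgeR 0 of the 7 were called (0.0813% of 15995 genes), while 1, Glp1r, had an unadjusted p under 0.05 (16.4% of all genes). DESeq2 called the same gene (4.07% of all genes). Glp1r was at 299 and 366 CPM at 8 weeks and at 190 and 180 at 4 weeks (0.85, SE 0.151, edgeR adjusted p 0.0783). Glp1r level at 4 weeks in controls thus lay just above that of 8-week betaSDmut islets (126 to 171 CPM). For the 4-week samples the labels refer extraction and library preparation to an earlier publication, and for the 8-week samples they name kits, so age and protocol cannot be told apart. Among the control islets only 4-week replicate 1 had Xist (986 CPM against at most 3.51), and its part in these values was not tested.

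The authors' deposited table of both mutants gives Glp1r a coefficient against control of -1.346 for betaKO and -0.794 for betaSDmut. Both coefficients are headed with the same control label, and which libraries it covers is not given in the sources used here. The coefficient there for betaKO against betaSDmut directly is -0.552. Against age-matched controls the estimates stood the other way round, at -0.95 for betaKO and -1.20 for betaSDmut, and the test of that difference gave -0.25 (SE 0.204, edgeR adjusted p 0.659). The authors' deposited table of both mutants calls 5 of the 7 lower in betaSDmut (Slc2a2, Glp1r, Slc30a8, Trpm5 and Ucn3) and 4 in betaKO (Slc2a2, Glp1r, Slc30a8 and Ucn3). Of its 9971 genes, it calls 1788 and 446. Their other deposited comparison, of betaSDmut alone against control, calls Slc2a2, Glp1r (-1.206) and Slc30a8 lower. It does not call G6pc2, Trpm5, Ucn3 or Abcc8.

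In E15.5 pancreas Glp1r had the lowest level relative to control of the 7 genes, 8.59-fold lower in SDmut. It was at 7.99, 6.24 and 3.71 CPM in controls and at 0.568, 0.615, 0.514 and 1.08 in SDmut replicates 1 to 4, or 5.98 ± 2.15 (SD, n = 3) against 0.694 ± 0.261 (SD, n = 4). All 4 mutants lay below all 3 controls, as for 1.99% of all genes (-3.10, SE 0.382), and the gene ranked 4 of 18723 by p. Without the libraries with muscle transcripts the estimate was -3.30 (SE 0.416). Its edgeR adjusted p was 0.263. EdgeR called 1 gene in all in this comparison (0.00534%), which was none of the 7. DESeq2 called Glp1r (-3.11, adjusted p 6.81e-12) and no other of the 7 (0.119% of all genes), and the authors' deposited DESeq2 table gives -2.96 and 1.72e-11.

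Slc2a2, G6pc2 and Slc30a8 had lower means at E15.5 with an unadjusted p of 0.0256, 0.0231 and 0.0237, and none was called. With Glp1r, that made 4 of the 7 with an unadjusted p under 0.05 and a lower mean, against 1.78% of all genes. Slc2a2 was at 25.1, 17.1 and 9.54 CPM in controls and at 11.3, 6.15, 8.99 and 9.60 in SDmut, so that the third control lay among the mutants (-0.94, SE 0.337). G6pc2 was at 5.11, 2.98 and 2.46 CPM in controls and at 0.877, 0.945, 2.57 and 1.34 in SDmut, with 1 mutant above a control (-1.29, SE 0.454). Slc30a8 was at 9.39, 3.43 and 2.49 CPM in controls and at 1.47, 1.65, 2.45 and 2.45 in SDmut. The highest mutants and the lowest control of Slc30a8 nearly met (-1.35, SE 0.476). Without control replicate 1, the highest library, its estimate was -0.56.

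The first control was the highest in Slc2a2, G6pc2, Glp1r and Slc30a8 alike, and it was also the highest in Ins1 (227 CPM against 98.9 and 79.8) and Ins2 (443 against 196 and 154). In SDmut, Ins2 was at 8.32 to 14.6 CPM (-4.52, edgeR adjusted p 0.0608, not called). Within SDmut, Ins2 was highest in replicate 3 (14.6 CPM), and the genes were not ordered alike. In that replicate Glp1r was lowest (0.514 CPM) but G6pc2 was highest (2.57 CPM). Slc30a8 was at 2.45 CPM there and in replicate 4, above the other SDmut libraries, and Slc2a2 was highest in replicate 1 (11.3 CPM). The first control was also the highest of the controls in Abcc8, in the sums of acinar markers (33090 CPM against 19146 and 13339) and alpha-cell markers (1314 against 563 and 478), and the lowest in mesenchyme markers (6210 against 11973 and 14064). The part of insulin-producing and other cells in these values was not tested.

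Trpm5, Ucn3 and Abcc8 did not differ beyond the spread in the embryo. Trpm5 was at 19.3, 32.4 and 38.7 CPM in controls and at 24.0, 40.7, 14.8 and 19.1 in SDmut (-0.29, SE 0.373). Its highest value in each group was in the library with muscle transcripts. Ucn3 was near its floor, with 8 to 29 counts and 0.207 to 0.710 CPM in the 7 libraries (0.31, SE 0.522). Abcc8 was at 141, 106 and 71.6 CPM in controls and at 91.4, 86.1, 118 and 156 in SDmut (0.09, SE 0.279), with an interval of 2 SE either side from -0.47 to 0.65. The SUR1 transcript was thus well above its floor in all 7 libraries, those with little Ins2 included.

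**Figure D5:**
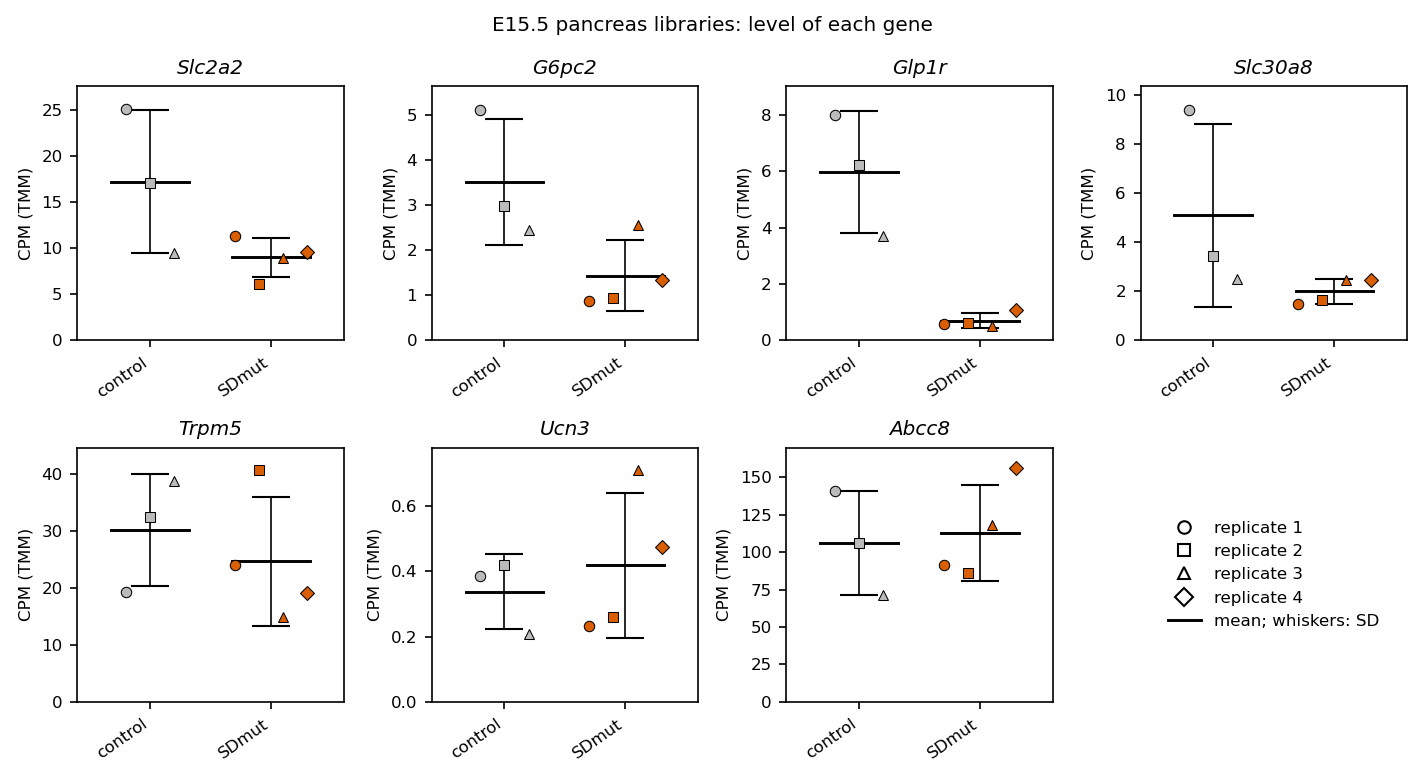
CPM scaled by TMM (y axes, from 0) of each gene in 3 control and 4 SDmut pancreata at E15.5, with mean and SD and a marker shape per replicate. Only Glp1r (0.514 to 1.08 CPM in SDmut against 3.71 to 7.99) and Slc30a8 have no overlap between groups.

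In motor neuron progenitors only Abcc8 passed the filter on low counts, and it was higher, though low, where Nkx2.2 was induced. It had 11, 11 and 18 counts in pMN and 227, 48 and 87 in iNkx2.2, or 0.680 ± 0.0757 CPM (SD, n = 3) against 3.35 ± 1.24 (SD, n = 3). All iNkx2.2 libraries lay above all pMN libraries, as for 16% of all genes (2.30, SE 0.374, edgeR adjusted p 0.00688), and 9.49% of 15653 genes were called in this comparison. It was called in 15 of 15 alternative fits, and a fit blocked on replicate number, which called 4629 genes against 1486 without the block, gave it an adjusted p of 0.00291. On the FPKM scale iNkx2.2 reached 0.427 ± 0.146, against 255 in 8-week control islets of the other, separately normalised table.

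In the iSDmut libraries Abcc8 had 10 and 23 counts, within reach of pMN, or 0.758 ± 0.280 CPM (SD, n = 2). Against pMN the estimate was 0.17 (SE 0.451, edgeR adjusted p 0.871; 3.54% of genes called), with an unadjusted p of 0.716 and no call by DESeq2. Against iNkx2.2 the estimate was -2.13 (SE 0.426, edgeR adjusted p 0.0854, not called; 0.281% of genes called). Its unadjusted p was 0.000603, and DESeq2 called it (adjusted p 0.00188, 3.28% of genes called), as did the replicate block (0.0421) and the fit without a filter (0.0247). Nkx2-2 itself was at 355 ± 20.1 CPM in iNkx2.2 and 246 ± 2.42 in iSDmut, so that the lines differed in induced level as well as in sequence. The part of that difference was not tested.

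The other 6 genes were at or near 0 in progenitors. Slc30a8 and Ucn3 had 0 counts in all 8 libraries, where 3 counts would be the limit that a count of 0 allows. Slc2a2 had 24 counts in iNkx2.2 replicate 1 and at most 4 in any other library, G6pc2 had at most 2, Glp1r 1 to 8 and Trpm5 1 to 20. Exons of Trpm5 overlap those of Tssc4 on the opposite strand. Whether the counting used strand is not given in the sources used here, so Trpm5 counts may include Tssc4 reads in every table.

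Beyond the 7, other genes of the same pathways were counted from lists, with all genes tested as the reference. The 7 themselves had a median log2 fold change of -0.89 at 8 weeks and -0.95 at 4 weeks, against 0.0058 and -0.0036 over all genes. Because the 7 and the lists were chosen with earlier results of these data known, these comparisons are descriptions and not independent support. Of 19 genes of glucose metabolism, edgeR called 1 lower at 8 weeks and 2 lower at 4 weeks (medians 0.05 and -0.08), against 3.87% and 0.75% of all genes. Pcx, pyruvate carboxylase, which refills the citric acid cycle, was called at both ages (-1.28, SE 0.180, adjusted p 0.0171, and -1.01, SE 0.0802, adjusted p 0.0224). Mlxipl, which encodes the glucose-responsive factor ChREBP, was called at 4 weeks (-1.45, SE 0.118, adjusted p 0.0224), and its effect differed between the groups (difference 1.26, SE 0.204, adjusted p 0.0324).

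Of 16 genes of membrane excitability, 2 were called higher at 8 weeks (4.07% of all genes): Scn3a, a voltage-gated sodium channel (1.35, SE 0.120, adjusted p 0.00477), and Kcnk3, a leak potassium channel (0.84, SE 0.128, adjusted p 0.0198). At 4 weeks 1 was called lower (0.75% of all genes), Trpm2, a cation channel of the same family as Trpm5 (-1.34, SE 0.181, adjusted p 0.0420). Kcnj11, the partner of Abcc8, was not called in either. Medians of the list were 0.05 and 0.09.

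Of 17 receptor and signalling genes, 2 were called lower and 1 higher at 8 weeks (3.87% and 4.07% of all genes), and 1 lower at 4 weeks (0.75%). Gipr was called lower at both ages, as Glp1r was. It encodes the receptor of the other incretin, GIP, and fell from 75.5 ± 15.4 to 16.6 ± 2.78 CPM at 8 weeks (-2.19, SE 0.178, adjusted p 0.00414). At 4 weeks it fell from 67.0 ± 7.66 to 27.2 ± 2.43 CPM (-1.30, SE 0.127, adjusted p 0.0264). Gpr119, a lipid receptor that also signals through cyclic AMP, rose at 8 weeks (2.17, SE 0.325, adjusted p 0.0220), and Vipr1, a VIP receptor, fell (-0.42, SE 0.0654, adjusted p 0.0207).

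Of 20 beta-cell identity genes, 3 were called lower and 2 higher at 8 weeks (median -0.20), against 3.87% and 4.07% of all genes, and 1 lower at 4 weeks (median -0.13), against 0.75%. The granule protein Chga (-1.13, adjusted p 0.00626), the mitochondrial subunit Cox6a2 (-2.59, adjusted p 0.0124) and the transcription factor Nkx6-1 (-0.91, adjusted p 0.0174) fell, and Isl1 (0.98, adjusted p 0.00504) and Chgb (0.66, adjusted p 0.0247) rose. Sytl4, a granule docking protein, was the one called at 4 weeks (-0.76, adjusted p 0.0372). Of the 16 genes of immature beta cells or normally silenced in mature ones, Ldha, lactate dehydrogenase A (4.15, SE 0.190, adjusted p 0.000868), and Aldh1a3 (4.13, SE 0.460, adjusted p 0.00940) rose at 8 weeks (4.07% of all genes called higher). At 4 weeks Npy rose (3.69, SE 0.192, adjusted p 0.0147; 0.81% of all genes) and Ldha was at 16.4 and 90.3 CPM against 10.7 and 19.7. At E15.5 edgeR called 0 of the genes in these 5 lists. An unadjusted p under 0.05 with a lower mean was seen there in 6 of 19 identity genes, 2 of 16 excitability genes, 2 of 16 immature or silenced genes, 1 of 17 receptor genes and 0 of 19 metabolism genes, against 1.78% of all genes, and DESeq2 called 28 genes over the whole table.

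Across the 9 islet libraries each gene was compared with 9370 genes by the root mean square (RMS) difference of log2 CPM after centring on each gene's mean, a description over libraries that share groups. Among the 7, Slc2a2 and Slc30a8 were most alike (RMS 0.30) and Trpm5 and Abcc8 least (1.12). The closest gene to Glp1r by name was D3Bwg0562e (0.17), followed by Grin1, an NMDA receptor subunit (0.23), and Vdr, the vitamin D receptor (0.26). The closest to Ucn3 were Fkbp1b (0.26), Ero1lb (0.27) and Sytl4 (0.27). G6pc2 was nearest to 1110067D22Rik, Ppp1r1a and Mmab (0.13 to 0.14), Slc30a8 to Igsf11, Flcn and Sirpa (0.11 each), and Slc2a2 to Tmem229b, Whrn and Fhdc1 (0.14 to 0.16). Abcc8 was nearest to Nup210, 2610018G03Rik and Gdap1 (0.06 to 0.09), and Trpm5 to Lrrc16b, Tmem215 and Dlgap1 (0.34 to 0.37).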

How the data were processed

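Whole pancreas, islets and progenitors were profiled by RNA-seq and MIN6 cells by ChIP-seq. The submitters' processing notes name the mm10 build, STAR, Cufflinks, DESeq2, edgeR 3.20.9, limma 3.34.9 and bedtools 2.17.0 without giving their roles, and strand use in counting is not given in the sources used here. The authors deposited raw read counts per gene, FPKM for islets and progenitors, and, at E15.5, a normalised signal (counts divided by size factors). They also deposited tables of log2 fold changes with p-values, and Nkx2.2 sites with log2 CPM, called as GEM events per the deposited description of the files.

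From the counts, edgeR 4.0.16 in R 4.3.3 (TMM scaling, filterByExpr, robust quasi-likelihood test, Benjamini-Hochberg adjustment over all genes tested, threshold 0.05) was fitted per comparison. A difference was called at an adjusted p under that threshold. Levels are CPM scaled by TMM, and the SE of a log2 fold change is its size over the square root of F. Islet comparisons used age-matched libraries, while the difference of effects and the control ages used a model of 4 groups, and progenitors one of 3 groups. Centred profiles used log2 CPM with a prior count of 2 over genes with a mean of at least 10 CPM. Sequences and motif counts came from the mm10 reference with Python 3.11.15. Alternatives were DESeq2 1.42.0, other scalings and filters, a replicate block, and leaving out libraries. The fitting code was tested on simulated counts. No 2 libraries of a group held identical values.

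Same-numbered pMN and iNkx2.2 libraries deviated together from their group means (r 0.535, 0.513 and 0.568), so their numbers may pair them. The main fits did not use this pairing. It entered only in the replicate block, which is among the alternatives. The numbers come from the labels, which do not say what they share.

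The 7 genes and all lists were chosen with earlier results of these data known. Genes named beyond the 7 are list genes called in the comparison described, the 3 nearest profiles of each of the 7, and Nkx2-2. Ins1, Ins2, Xist, Kcnj11 and the Ldha values at 4 weeks were added after their values were seen.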

Additional observations from a re-analysis of the deposited data

How the results depend on the processing

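Of 506 estimates for the 7 genes under an alternative, 454 kept their direction and side of the threshold, 15 were no longer called, 19 became called and 18 changed sign. The counts of called genes moved more, and the cause was not tested. DESeq2 called 1999 genes at 8 weeks (1224 by edgeR), 798 at 4 weeks (233), 663 for the difference of effects (194), 28 at E15.5 (1), 645 for control ages (13), 496 for iSDmut against iNkx2.2 (44) and 1349 for iSDmut against pMN (554). Of the 7 genes it called 6 at 4 weeks and 1 each at E15.5, for control ages and for iSDmut against iNkx2.2. Total library size gave 127 genes at 4 weeks, 2 at E15.5 and 8 for control ages. Without a filter, 372 (4 of the 7), 36 and 145 (1 of the 7) were called at 4 weeks, for control ages and for iSDmut against iNkx2.2. The model of 9 islet libraries called 428 at 4 weeks. Fits of only the compared groups called 13 for iSDmut against iNkx2.2 and 295 for iSDmut against pMN.

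With each library left out in turn, counts ran from 37 to 2765 at 8 weeks, 4 to 478 at 4 weeks, 0 to 343 for the difference, 0 to 2 at E15.5, 0 to 160 for control ages, 412 to 1604 for iNkx2.2 against pMN, 1 to 467 for iSDmut against iNkx2.2 and 171 to 471 for iSDmut against pMN. Of the 7 genes, 0 to 6 were called at 8 weeks, 0 to 3 at 4 weeks and 0 to 1 for control ages. A group left with 1 library is assumed to vary like the others.

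The replicate block called 4629 genes for iNkx2.2 against pMN, 2626 for iSDmut against pMN and 528 (1 of the 7) for iSDmut against iNkx2.2, which share 2 numbers (r 0.332 and 0.112). In islets same-numbered libraries did not deviate together (r -0.12 to -0.063) and share only a number. The block gave 757 genes there at 8 weeks, with Glp1r at -1.12 (edgeR adjusted p 0.061), and at 4 weeks Slc2a2 at an adjusted p of 0.040. At E15.5 a block on the number in the title called 0 genes.

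Some estimates changed sign, most of them near 0; the ranges are those with 1 library left out. Abcc8 ran from -0.30 to 0.087 at 4 weeks (the latter without betaKO replicate 2), from -0.0035 (without betaKO replicate 2) to 0.38 for the difference, and from -0.29 (without iSDmut replicate 2) to 0.48 for iSDmut against pMN. At E15.5 Abcc8 ran from -0.13 (without control 3; -0.11 without SDmut 4) to 0.35, and was -0.081 with the block and -0.020 without both libraries holding muscle transcripts. G6pc2 at 8 weeks ran from -0.46 to 0.090 (without betaSDmut replicate 3; 0.0054 without replicate 2) and was 0.031 with the block. For control ages G6pc2 ran from -0.017 to 0.14 and Slc2a2 from -0.13 to 0.37, the lower values without the first 4-week control. Total library size gave -0.060 and -0.024 for the same genes, and deposited FPKM -0.089 for G6pc2. The Trpm5 difference ran from -0.74 (without betaSDmut replicate 1) to 0.38, with -0.13 without 4-week control 2 and -0.21 without betaKO replicate 2. Ucn3 at E15.5 ran from -0.073 (without SDmut replicate 3) to 0.51. Most islet groups held 2 libraries, and the low counts of Ucn3 at E15.5 and of 6 of the 7 genes in progenitors limit what could be detected.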
